A study of Mus musculus with 4 samples.

Results

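The Hox genes were examined in H3K9ac ChIP-seq peak lists from mouse BM-derived MDSC, that is, suppressor cells of the myeloid lineage grown from bone marrow, which dampen T cell responses. The members were 38 Hox genes of the HoxA (10 genes), HoxB (10), HoxC (9) and HoxD (9) clusters, out of 21887 protein-coding genes in all, chosen by gene name. Each gene was given a window of its RefSeq span plus 1 kb on either side. Per the series text senescence was induced in culture. The groups used were IP_CM, cells under a condition that the labels call CM and do not expand, and IP_CM_plus_Romidepsin, the same condition with the histone deacetylase inhibitor romidepsin added. Both carried the same antibody against H3 acetylated at lysine 9, a mark laid down at active promoters. Each condition had 1 immunoprecipitated library, so every difference below stands without a replicate check and no test between conditions was run. The 2 input libraries were not analysed here. Dose, time of treatment and the source mice were not given.

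Hox genes encode homeodomain transcription factors that give cells their position along the body axis. They lie in 4 clusters, and members with the same number (paralogue group 1 to 13) descend from the same ancestral gene. Within a cluster the order of the genes follows the order of their expression along the body, from anterior (low numbers) to posterior (high numbers). In blood, HoxA and HoxB genes are active in stem and progenitor cells and are lowered as cells mature, whereas Polycomb proteins keep unused Hox genes silent and the MLL methyltransferase keeps used ones active. Deacetylases remove H3K9ac, and romidepsin blocks the class I enzymes among them.

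The CM list held 16419 peaks with a median length of 1121 bp, and the romidepsin list 103336 peaks with a median length of 957 bp. Read depth is unknown, and its part in the number and width of peaks was not tested. In all, 8.70 times as much sequence lay under a peak with romidepsin as in CM. The fold of a peak is the authors' own enrichment over background and is used below only within its list, because the background differs between lists. Cell type markers were counted by the same windows, by which 53.6% of all protein-coding genes had a CM peak and 68.3% a romidepsin peak. Counts near these shares do not tell cell types apart. All 10 myeloid markers, among them Spi1 and Cebpa, had a peak in both lists. Neutrophil markers had one at 5 of 8 in CM and 8 of 8 with romidepsin, with Ly6g, Mpo and S100a9 at 0 in CM. Erythroid markers had one at 1 of 4 and 2 of 4. Of 9 markers of stromal and endothelial cells, 2 were under a CM peak (Kdr and Pecam1) and 7 under a romidepsin peak, with Col1a2 and Twist1 at 0 in both. Lymphoid markers had one at 2 of 8 and 6 of 8, and stem and progenitor markers at 3 of 7 (Flt3, Hlf and Meis1) and 7 of 7, with Kit, Cd34, Gata2 and Mecom at 0 in CM. The part of such cells in the Hox peaks was not tested. The CM peaks at Flt3, Hlf and Pecam1 were short (281, 321 and 447 bp) and low in fold (3.37, 3.42 and 3.68).

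H3K9ac peaks lay over HoxA and HoxB and were nearly missing from HoxC and HoxD. In CM, 4 of 10 HoxA genes and 3 of 10 HoxB genes had a peak, and none of the 9 HoxC and 9 HoxD genes did. With romidepsin the counts were 8 of 10, 8 of 10, 1 of 9 and 2 of 9. Over all members this was 7 of 38 genes (18.4%) in CM, where 53.6% of all protein-coding genes had a peak, and 19 of 38 with romidepsin, where 68.3% did. Hox genes are short, with a median span of 3721.5 bp against 17169 bp for all genes. Among genes within the length range of the Hox genes the shares were 57.2% and 72.7%. The share of Hox genes was thus below that of all genes in both lists. The gap was narrower with romidepsin in the full lists but not with equal numbers of strongest peaks, where 6 of 38 Hox genes and 54.5% of all genes had a romidepsin peak.

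The covered sequence showed the same division. HoxA, a window of 100.5 kb on chromosome 6 from 52161417 to 52261880, held 5 CM peaks over 6.42% of its sequence and 12 romidepsin peaks over 27.0%. HoxB, 175.9 kb on chromosome 11 from 96193316 to 96369254, held 5 CM peaks over 3.25% and 12 romidepsin peaks over 14.1%. A stretch of 74.7 kb with no Hox gene and no peak of either list parts Hoxb13 from the rest of HoxB. From Hoxb9 to Hoxb1 the shares were 5.78% and 25.1%. HoxC, 117.7 kb on chromosome 15 from 102920131 to 103037856, held no CM peak and 2 romidepsin peaks over 0.849%. HoxD, 98.9 kb on chromosome 2 from 74667225 to 74766142, held no CM peak and 2 romidepsin peaks over 2.09%. Over the union of all gene windows 1.95% lay under a CM peak and 13.7% under a romidepsin peak. By this share of bases HoxA and HoxB lay above the union of gene windows in CM. With romidepsin HoxA and the part of HoxB from Hoxb9 to Hoxb1 did too. HoxB as a whole was then only slightly above the union, at 14.1% against 13.7%. HoxC and HoxD lay below it in both lists. The union holds many genes longer than the Hox genes, and no share of bases matched for gene length is given here. Taken gene by gene, the median CM cover of HoxA and of HoxB was 0%, because most of their genes had no CM peak, against 0.889% over all genes. With romidepsin the medians were 24.3% in HoxA and 25.2% in HoxB, against 12.1% over all genes.

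**Figure D1:**
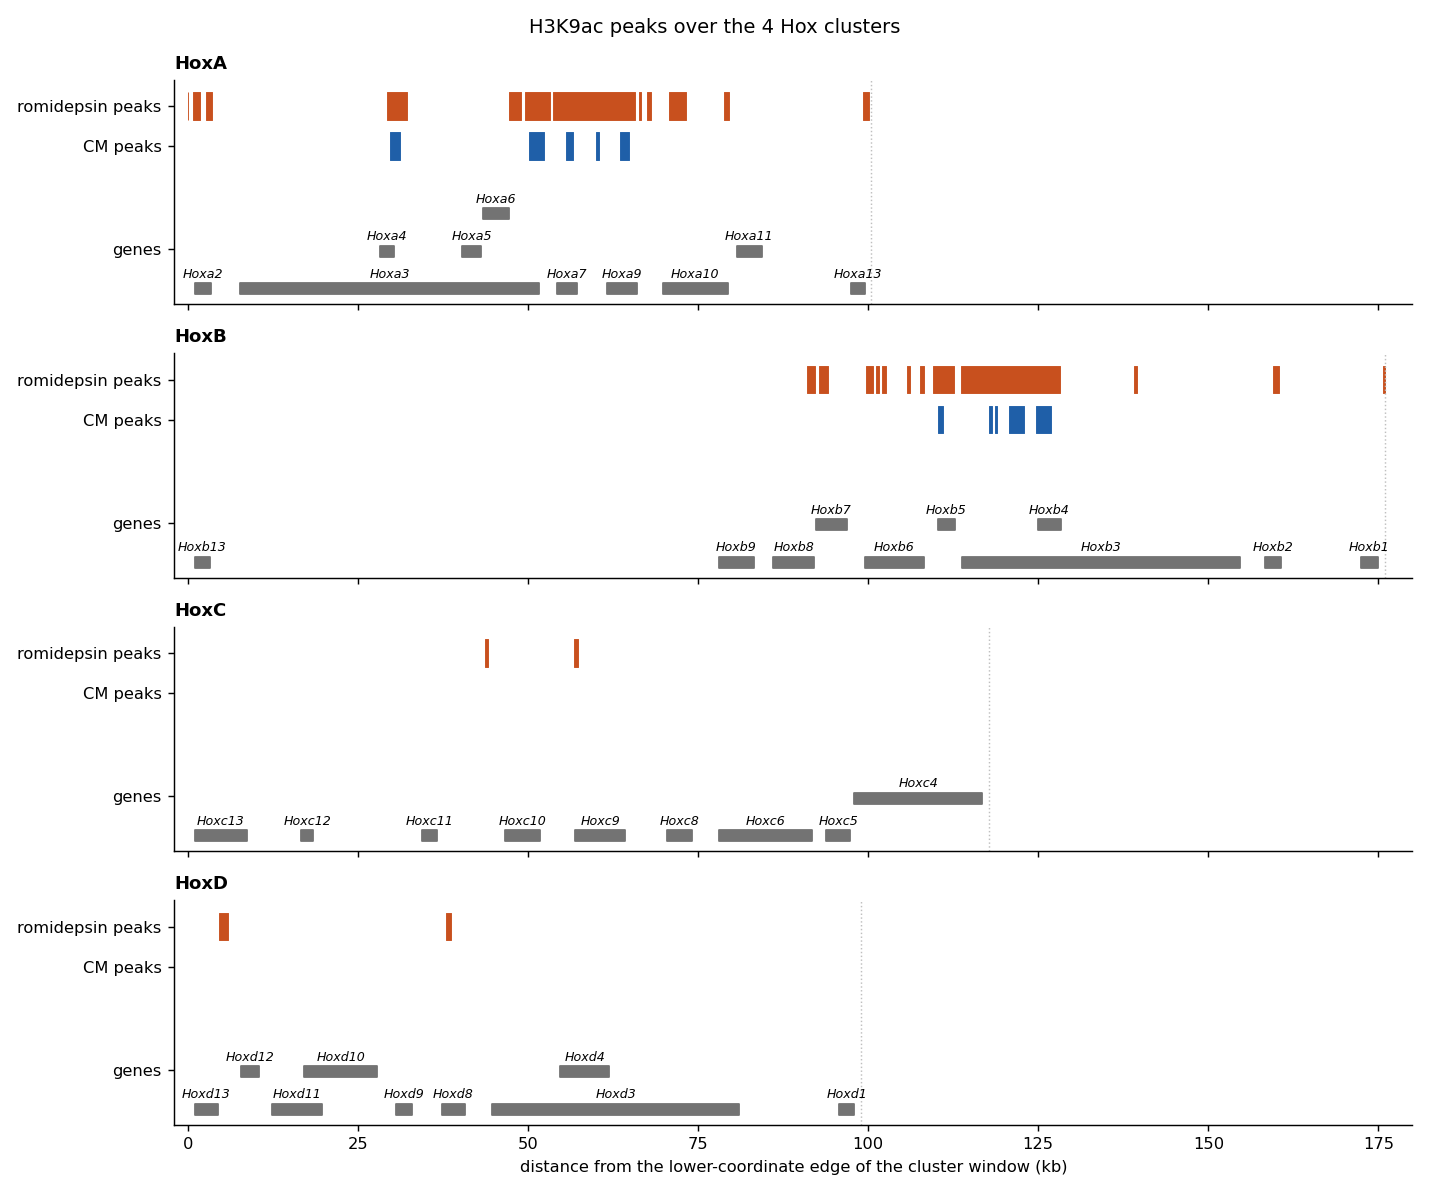
H3K9ac peaks over the 4 Hox clusters. The x axis gives the distance in kb from the edge of each cluster window with the lower coordinate, grey bars are gene spans, blue bars CM peaks and orange bars romidepsin peaks, and the dotted line ends the window. The 10 CM peaks sit in the middle of HoxA and HoxB, and each lies under a romidepsin peak.

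The CM peaks of HoxA lay around the genes Hoxa3, Hoxa4, Hoxa7 and Hoxa9. Hoxa9, a progenitor factor that drives myeloid leukaemia together with Meis1, had 1 CM peak of 1230 bp (chromosome 6, 52224965 to 52226194, fold 3.81, −log10 q 1.86) inside its gene. That was a weak peak, at percentile 17.5 by fold among all CM peaks. Hoxa7, its neighbour, had a CM peak of 993 bp (52217021 to 52218013, fold 4.58, percentile 40.4). A further CM peak of 404 bp (52221385 to 52221788, fold 4.36) lay between these 2 genes and in the window of neither. Hoxa4 had a CM peak of 1508 bp (52191098 to 52192605, fold 5.07, percentile 50.7) across its end of higher coordinate. Hoxa3, which patterns the throat and thymus, has a RefSeq span of 44009 bp that holds Hoxa4, Hoxa5 and Hoxa6, so the Hoxa4 peak also counted for Hoxa3. At the start site of Hoxa3 itself stood the longest of these peaks, 2312 bp (52211522 to 52213833, fold 4.19).

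The CM peaks of HoxB lay from Hoxb5 to Hoxb4. Hoxb4, known for expanding blood stem cells, had the strongest Hox peak of the CM list, 2154 bp across its start (chromosome 11, 96318013 to 96320166, fold 6.27, −log10 q 6.40, percentile 81.2). Hoxb3 spans 40830 bp and holds Hoxb4, and had 3 more CM peaks upstream of Hoxb4, of 2077, 495 and 365 bp, with folds of 5.15, 3.99 and 3.82. Hoxb5, a marker of long-term blood stem cells, had a CM peak of 622 bp (96303638 to 96304259, fold 4.62). No CM peak lay at Hoxb1, Hoxb2, Hoxb6, Hoxb7, Hoxb8, Hoxb9 or Hoxb13. Among the 10 CM peaks of the clusters, 3 had a fold above the median of the CM list, which was 5.04, and 5 had a length above the list's median. As a group these were not strong peaks: their median fold stood at percentile 37.8 of the CM list.

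With romidepsin the separate CM peaks lay inside a few longer ones. All 10 CM peaks overlapped a romidepsin peak, as did 16399 of the 16419 CM peaks of the whole list. In HoxB, 1 peak of 14446 bp (96307024 to 96321469, fold 3.91) ran over 4 CM peaks and touched the windows of Hoxb3, Hoxb4 and Hoxb5. In HoxA, 1 peak of 12115 bp (52215030 to 52227144, fold 3.28) ran over 3 CM peaks from Hoxa7 into Hoxa9. Only 606 romidepsin peaks (0.586%) of the whole list overlapped 3 or more CM peaks. These 2 peaks held 48.3% of all Hox cluster sequence under a romidepsin peak. The longest romidepsin partner of a Hox CM peak was longer by a median ratio of 8.40, from 1.56 at the Hoxa3 start to 39.6 at the shortest Hoxb3 peak. Over all 16399 CM peaks with a partner the median ratio was 4.37. The Hox median was carried by these 2 peaks, which are the partner of 7 of the 10, and the other 3 ratios were 1.56 at Hoxa3, 1.90 at Hoxa4 and 4.86 at Hoxb5. Covered sequence grew 4.21 times in HoxA and 4.34 times in HoxB, while the union of all gene windows went from 1.95% to 13.7% covered.

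Romidepsin peaks without a CM peak under them were shorter and lower in fold than those with one, and close to the middle of their list. Of the 28 romidepsin peaks in the clusters, 22 overlapped no CM peak, with a median length of 769 bp (293 to 2509 bp), a median fold of 2.58 and a median fold percentile of 43.7 in their list. The 6 that overlapped CM peaks had a median length of 4261 bp (2869 to 14446 bp), a median fold of 3.90 and a median fold percentile of 94.0. Over the whole list the 13312 romidepsin peaks with a CM peak had a median length of 4865.5 bp, against 957 bp for all romidepsin peaks. Of the 6, the peak of 4918 bp at the edge of HoxA, overlapped CM peaks outside the cluster window only. The 2 sets did not overlap in length (up to 2509 against 2869 bp and above) and lay next to each other in fold (up to 3.21 against 3.26 and above). When the romidepsin list was limited to its 16419 strongest peaks by −log10 q, none of the 22 was left.

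**Figure D2:**
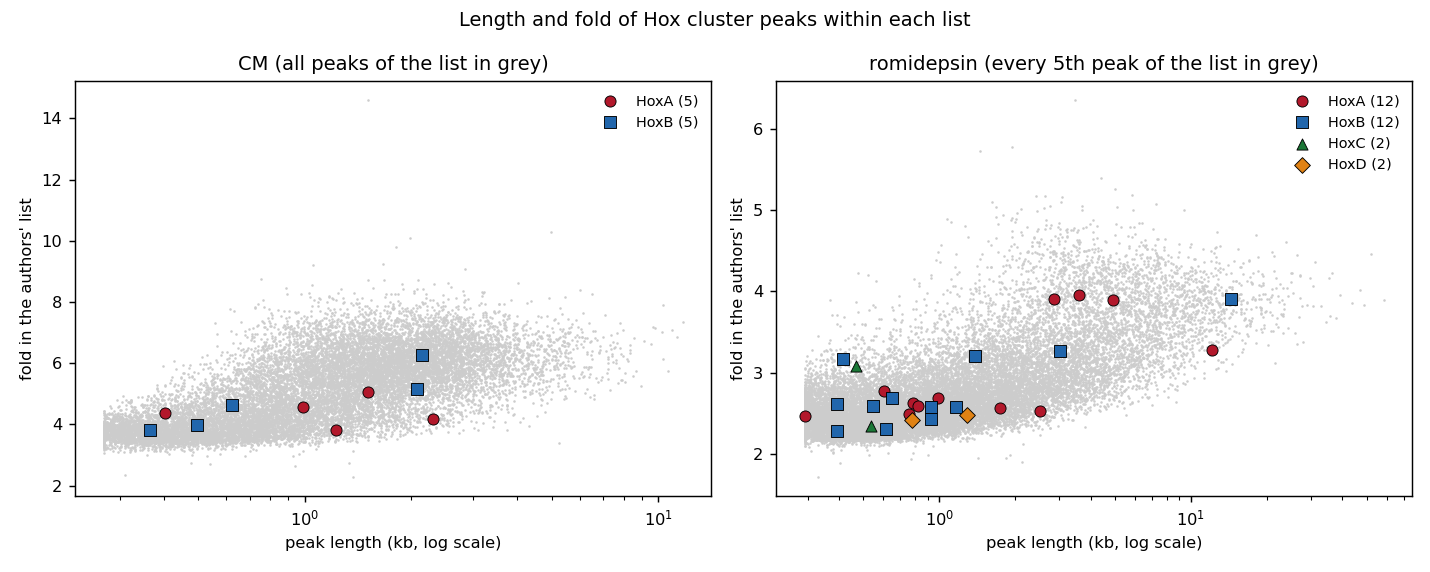
Length and fold of the Hox cluster peaks within each list. The x axis is the peak length in kb on a log scale, the y axis the fold in the authors' list, grey dots are peaks of the list (all of them for CM, every 5th for romidepsin) and coloured symbols the peaks of each Hox cluster. The 6 romidepsin peaks that overlap CM peaks are the longest, from 2869 bp, with folds from 3.26. The 22 others come close to them, with lengths up to 2509 bp and folds of 2.29 to 3.21.

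A peak in the romidepsin list only was found at 12 of 38 Hox genes (31.6%), against 14.8% of all protein-coding genes. Because most Hox genes had no CM peak, more of them could join this class. Among the 31 Hox genes without a CM peak 38.7% had a romidepsin peak, close to the 31.8% of all genes without a CM peak and the 36.3% of those within the Hox length range. In HoxA they were Hoxa2, Hoxa6, Hoxa10 and Hoxa13. Hoxa10, a further leukaemia-linked gene of myeloid progenitors, had peaks of 2509 and 756 bp (folds 2.53 and 2.49). Hoxa2, which patterns the hindbrain and the second pharyngeal arch, had peaks of 993 and 786 bp (folds 2.69 and 2.63). A further peak of 4918 bp (fold 3.90) lay outside the cluster window but for 50 bp. Hoxa6 had 1 peak of 1748 bp (fold 2.56), and Hoxa13, which shapes digits and the genital tract, had 1 of 826 bp (52260654 to 52261479, fold 2.60). Between Hoxa10 and Hoxa13 no peak was called at Hoxa11, a gene of the forearm and kidney, and Hoxa5, a lung and rib patterning gene, was the other HoxA member without a peak in either list.

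In HoxB the genes with a romidepsin peak only were Hoxb1, Hoxb2, Hoxb6, Hoxb7 and Hoxb8. Hoxb6 had 5 short peaks of 413 to 926 bp, with folds of 2.30 to 3.17. Hoxb7 and Hoxb8 shared the same 2 peaks of 1165 and 1385 bp, the second with the highest fold of the 22 new peaks (96286043 to 96287427, fold 3.21). Hoxb8 is used to hold myeloid progenitors in culture. Hoxb1 and Hoxb2, genes of the hindbrain, had 1 peak each of 391 and 930 bp (folds 2.62 and 2.43). The romidepsin peaks of HoxB ended on the posterior side at 96284304, within Hoxb8. Beyond that point a stretch of 90988 bp, with Hoxb9 and Hoxb13, held no peak of either list up to the edge of the cluster window.

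HoxC and HoxD lay wholly inside long regions without CM peaks, and such regions also bordered HoxB, whose next CM peaks were 117617 bp before its window and 407271 bp beyond it. The nearest CM peaks around HoxC were at Calcoco1 and Smug1, 440.8 kb apart, and those around HoxD at Lnpk and Mtx2, 246.1 kb apart. All 4 of these flanking genes had a peak in both lists. In HoxC the romidepsin peaks were 465 bp at Hoxc9 (chromosome 15, 102976959 to 102977423, fold 3.08) and 535 bp between Hoxc10 and Hoxc11 (fold 2.34), in no gene window. In HoxD they were 782 bp inside Hoxd8 (chromosome 2, 74705126 to 74705907, fold 2.42) and 1287 bp beside Hoxd13 (74671842 to 74673128, fold 2.49). The members without a peak in either list were Hoxc4, Hoxc5, Hoxc6, Hoxc8, Hoxc10, Hoxc11, Hoxc12 and Hoxc13 in HoxC, and Hoxd1, Hoxd3, Hoxd4, Hoxd9, Hoxd10, Hoxd11 and Hoxd12 in HoxD. With Hoxa5, Hoxa11, Hoxb9 and Hoxb13 they made up 19 of the 38. A stretch of 60433 bp of HoxC, with Hoxc8 to Hoxc4, and one of 60235 bp of HoxD, with Hoxd3, Hoxd4 and Hoxd1, held no peak of either list.

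Paralogue position was then compared within HoxA and HoxB. In CM, 2 of 5 anterior genes (groups 1 to 3), 4 of 9 central genes (groups 4 to 8) and 1 of 6 posterior genes (groups 9 to 13) of these clusters had a peak, and with romidepsin 5 of 5, 8 of 9 and 3 of 6. The lower posterior count with romidepsin came from HoxB, at 0 of 2 posterior and 5 of 5 central genes, one of these 2 being the distant Hoxb13. In HoxA it was 3 of 4 for both. In HoxC and HoxD the romidepsin counts were 0 of 2, 1 of 6 and 2 of 10. Neighbours share peaks, so these counts are not independent: 2 of the 10 CM peaks and 6 of the 28 romidepsin peaks lay in the windows of more than 1 member. In most paralogue groups the members differed in state between clusters. Of the 4 members of group 4, Hoxa4 and Hoxb4 had peaks in both lists and Hoxc4 and Hoxd4 in neither. In group 9, Hoxa9 had a peak in both lists, Hoxc9 with romidepsin only, and Hoxb9 and Hoxd9 in neither. In group 13, Hoxa13 and Hoxd13 had a peak with romidepsin only and Hoxb13 and Hoxc13 in neither. Groups 11 and 12 had no peak at any of their 3 and 2 members, and both members of group 2, Hoxa2 and Hoxb2, had a peak with romidepsin only.

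The share of each gene window under a peak ranked the members. In CM it was highest at Hoxb4 (40.1%) and Hoxa4 (37.5%), then Hoxa7 (20.1%), Hoxa9 (19.6%), Hoxb5 (13.5%), Hoxb3 (11.9%) and Hoxa3 (8.30%). With romidepsin it was highest at Hoxa7 (91.8%), Hoxa9 (85.1%), Hoxb4 (78.2%) and Hoxb5 (67.8%), and Hoxa4 followed at 48.4%. The 7 genes with a CM peak had a median of 19.6% there, against 6.36% for all genes with a CM peak, in windows that are shorter. The median over all 38 members was 0% in CM and 2.47% with romidepsin, against 0.889% and 12.1% over all genes.

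**Figure D3:**
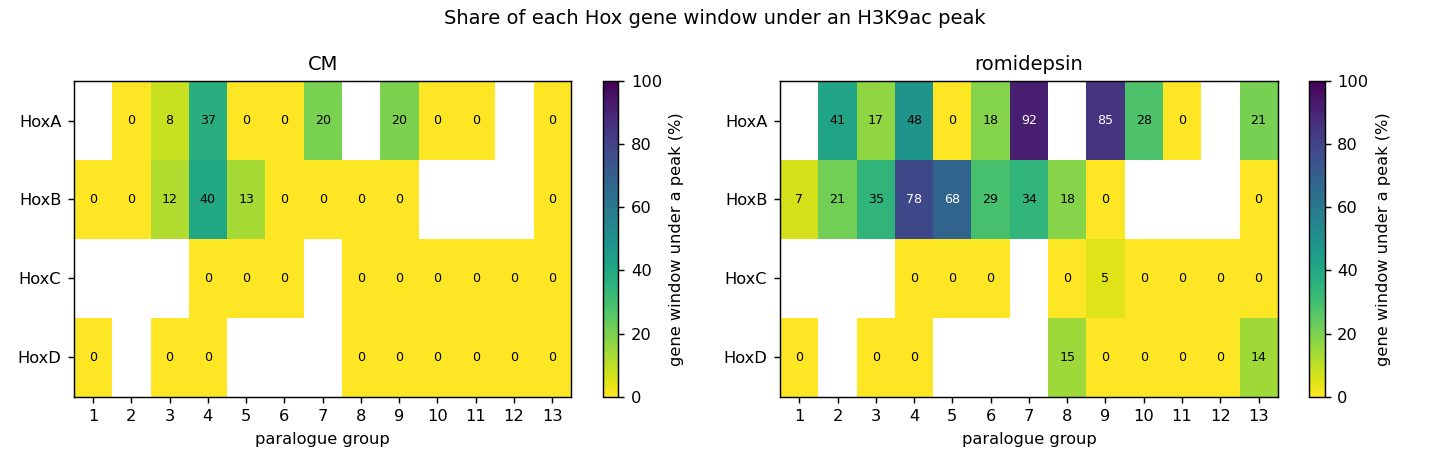
Share of each Hox gene window under an H3K9ac peak. Columns are paralogue groups, rows are clusters, the colour and the number give the percent of the gene span plus 1 kb on either side under a peak, and white cells hold no member. Values above 0 are confined in CM to the rows of HoxA and HoxB, up to 40.1% at Hoxb4, and with romidepsin reach 91.8% at Hoxa7.

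Start sites gave a narrower view. The RefSeq promoter table (GRCm38.p6) held 22 of the 38 members, 9 of HoxA, 3 of HoxB, 1 of HoxC and 9 of HoxD. A CM peak lay over the start of 2 of the 22, Hoxa3 and Hoxb4, where 45.0% of all genes in the table had one. A romidepsin peak lay over the start of 7 of 22 (59.1% of all genes), namely Hoxa2, Hoxa3, Hoxa6, Hoxa7, Hoxa10, Hoxa13 and Hoxb4. At Hoxa7 the CM peak began 560 bp downstream of the start, and the long romidepsin peak took the start in. At Hoxa9 the CM peak stood 1176 bp downstream, inside the gene. The long romidepsin peak stopped 226 bp short of the Hoxa9 start, and the next peak began at 52227780 on the other side, so the start of Hoxa9 itself was under no peak of either list. No start of the 9 HoxD genes was under a peak, the nearest being that of Hoxd8 at 511 bp from a romidepsin peak. The chromatin had been sheared to fragments of about 0.5 to 2 kbp per the labels, which limits how finely a peak edge can be placed.

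The 250 bases before 6 of these starts are shown, because they cover the states found: a start under a peak in both lists (Hoxb4, Hoxa3), under a romidepsin peak only (Hoxa7, Hoxa13), beside peaks but under none (Hoxa9), and in a cluster without peaks at starts (Hoxd13). CpG dinucleotides are in capitals, and each sequence reads 5′ to 3′ on the gene's strand, from RefSeq, GRCm38.p6. Hoxb4 is chr11:96318017-96318266 on the plus strand, Hoxa3 chr6:52213068-52213317, Hoxa7 chr6:52218574-52218823, Hoxa9 chr6:52227371-52227620 and Hoxa13 chr6:52260881-52261130, all on the minus strand, and Hoxd13 chr2:74667975-74668224 on the plus strand.
Hoxb4: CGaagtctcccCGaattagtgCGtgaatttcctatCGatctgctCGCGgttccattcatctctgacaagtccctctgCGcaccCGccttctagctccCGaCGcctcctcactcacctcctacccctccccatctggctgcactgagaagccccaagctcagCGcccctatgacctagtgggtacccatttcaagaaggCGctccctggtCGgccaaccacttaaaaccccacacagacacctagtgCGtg
Hoxa3: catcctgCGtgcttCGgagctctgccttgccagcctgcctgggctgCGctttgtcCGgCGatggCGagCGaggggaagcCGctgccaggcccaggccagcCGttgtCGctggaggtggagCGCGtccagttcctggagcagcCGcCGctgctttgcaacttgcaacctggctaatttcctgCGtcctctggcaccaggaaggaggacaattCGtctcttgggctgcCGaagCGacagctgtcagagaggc
Hoxa7: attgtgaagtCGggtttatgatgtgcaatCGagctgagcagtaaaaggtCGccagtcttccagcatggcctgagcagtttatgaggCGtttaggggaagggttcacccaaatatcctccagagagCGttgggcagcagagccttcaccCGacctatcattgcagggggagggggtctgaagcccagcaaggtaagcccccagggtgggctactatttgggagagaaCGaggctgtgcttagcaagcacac
Hoxa9: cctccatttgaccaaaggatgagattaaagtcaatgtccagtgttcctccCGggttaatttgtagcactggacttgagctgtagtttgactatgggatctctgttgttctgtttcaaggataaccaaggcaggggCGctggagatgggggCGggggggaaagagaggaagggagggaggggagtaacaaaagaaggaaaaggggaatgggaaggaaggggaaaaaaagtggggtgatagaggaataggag
Hoxa13: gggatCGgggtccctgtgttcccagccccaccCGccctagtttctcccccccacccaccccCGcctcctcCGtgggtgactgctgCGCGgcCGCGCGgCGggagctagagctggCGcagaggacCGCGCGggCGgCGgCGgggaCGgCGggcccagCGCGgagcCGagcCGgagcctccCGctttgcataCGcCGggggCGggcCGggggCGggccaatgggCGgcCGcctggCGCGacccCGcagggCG
Hoxd13: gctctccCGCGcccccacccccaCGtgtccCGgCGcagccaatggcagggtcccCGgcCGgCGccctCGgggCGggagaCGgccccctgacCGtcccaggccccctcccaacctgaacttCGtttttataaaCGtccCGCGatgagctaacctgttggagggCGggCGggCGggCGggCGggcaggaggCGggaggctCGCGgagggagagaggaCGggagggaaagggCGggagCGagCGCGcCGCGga

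CpG number did not sort the starts by their peaks. The shown stretches held 14 CpG at Hoxb4, 18 at Hoxa3, 7 at Hoxa7, 3 at Hoxa9, 35 at Hoxa13 and 31 at Hoxd13. Over windows of 300 bases (250 before to 50 after the start), the 7 Hox starts under a romidepsin peak had a median of 14 CpG (9 to 45) and the 17 others a median of 15 (4 to 37), some genes having more than 1 start. The median over 21263 starts of protein-coding genes was 13. Hoxd13, with 37 CpG in its window, stood at percentile 93.1 of these without a peak over its start, and Hoxa9, beside peaks, at percentile 26.2. The CCAAT box, searched as CCAAT on both strands, was in 15 of the 24 Hox windows and in 38.2% of all windows. The E-box CACGTG was in 5 of 24, all in HoxD, and in 7.84% of all. TATAAA was in 4 of 24 and 12.6%, and TGATTNAT, a site for PBX with HOX proteins, in 2 of 24 (Hoxa2 and Hoxd11) and 2.75%. The windows of Hoxa3, Hoxa7, Hoxa9 and Hoxb4 held none of these 4 motifs.

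The clusters also carry microRNA genes, of which those of the miR-10 and miR-196 families are shown. Within each family the paralogues have the same seed (bases 2 to 8, in capitals) but lie in clusters with and without CM peaks.
miR-10a-5p: uACCCUGUagauccgaauuugug
miR-10b-5p: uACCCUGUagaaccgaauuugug
miR-196a-5p: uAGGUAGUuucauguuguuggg
miR-196b-5p: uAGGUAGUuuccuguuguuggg
Mir10a, just upstream of Hoxb4, was the one hairpin of the 6 in the clusters that lay under a peak. It was under the romidepsin peak of 14446 bp, and in CM the mature miR-10a-5p stood 805 bp from the nearest peak, the one at Hoxb4. Mir10b in HoxD carries the seed ACCCUGU too and stood 20167 bp from the nearest romidepsin peak. Mir196b, between Hoxa9 and Hoxa10, stood 684 bp (miR-196b-5p) from a romidepsin peak of 601 bp and 3935 bp from a CM peak. The 2 genes of miR-196a, Mir196a-1 near Hoxb9 and Mir196a-2 near Hoxc10, stood 19096 and 3573 bp from the nearest romidepsin peak. The peaks do not show whether any of these RNAs was made.

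Genes that work with or on Hox genes mostly had peaks already in CM. Among the TALE cofactors, homeodomain partners that bind DNA with HOX proteins, 6 of 9 had a CM peak and 9 of 9 a romidepsin peak. Meis1, which is also among the stem and progenitor markers, had 3 CM peaks with a highest fold of 4.80. The highest CM fold was 6.43 at Pknox1, 6.38 at Pbx2, 5.95 at Pbx3 and 3.61 at Pknox2. Meis2, Meis3 and Pbx4 had a peak with romidepsin only. MLL and elongation partners, which sustain Hox genes, were marked at 13 of 13 members in CM and with romidepsin, with Kmt2a, the MLL gene itself, at a CM fold of 6.25, and Kmt2b (7.23), Aff4 (7.11), Aff1 (6.91) and Wdr5 (6.70) the highest. Polycomb repressors had one at 15 of 15 in both lists, with the highest CM folds at Jarid2 (7.67), Ring1 (7.39), Rnf2 (7.28) and Phc2 (6.57). The class I deacetylase genes Hdac1, Hdac2 and Hdac3, whose products romidepsin inhibits, had a peak in both lists.

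In CM, other homeobox genes of development resembled HoxC and HoxD more than HoxA and HoxB. Of the caudal and ParaHox genes, the relatives of the Hox genes outside the clusters, 0 of 6 had a CM peak and 1 of 6, Gsx1, a romidepsin peak of 878 bp (fold 2.73), while Cdx1, Cdx2, Cdx4, Gsx2 and Pdx1 had none. Of 22 other developmental homeobox genes 2 had a CM peak, among them Lhx2 (a single peak of 477 bp), and 10 a romidepsin peak. This romidepsin share lay between those of HoxC and HoxD (3 of 18) and of HoxA and HoxB (16 of 20). Dlx1 and Dlx2, neighbours on chromosome 2, had 67.3% and 72.0% of their windows under romidepsin peaks and no CM peak. Alx4, Dlx5, Dlx6, Emx2, Msx1, Msx2, Nkx2-1, Nkx2-5, Nkx6-1, Otx2, Pax7 and Six2 had no peak in either list. Of the genes flanking the clusters 14 of 19 had a CM peak and 17 of 19 a romidepsin peak. The highest CM folds among them were at Hnrnpa3 (6.61), Hibadh (6.16), Mtx2 (6.12) and Tax1bp1 (5.98). Calcoco2 and Ttll6, beside the posterior end of HoxB, had neither. The homeobox genes Evx1 and Evx2, at the posterior ends of HoxA and HoxD, had a romidepsin peak only (folds 2.62 and 3.13).

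**Figure D4:**
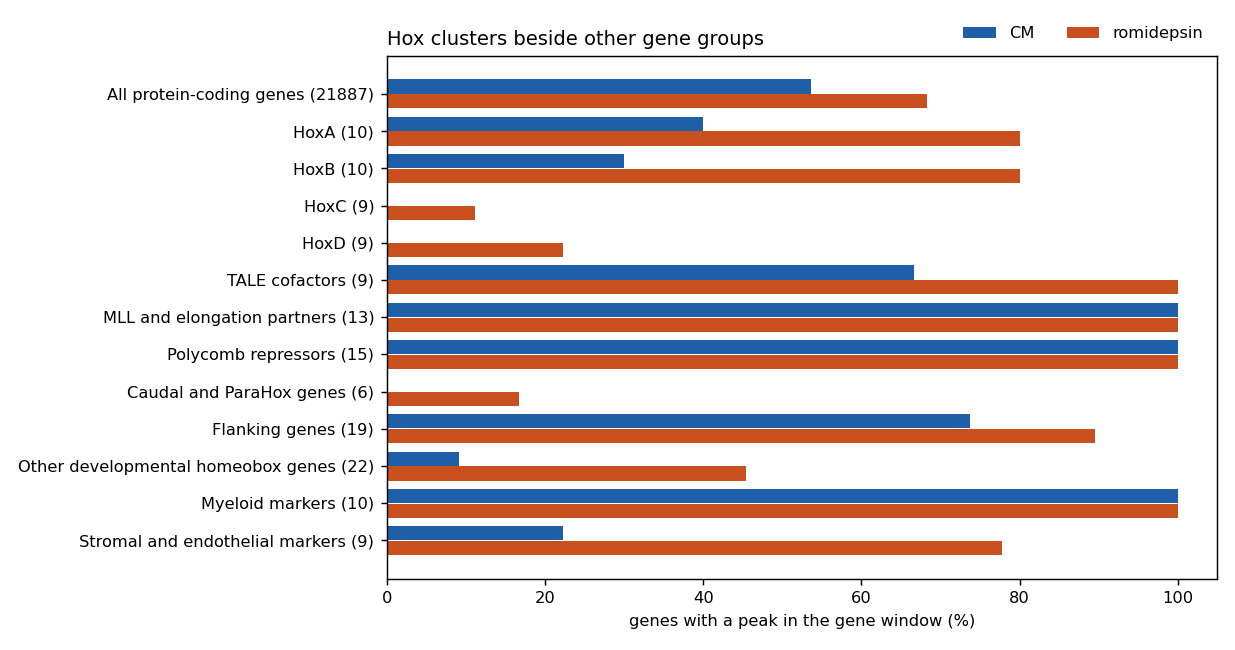
Hox clusters beside other gene groups. Bars give the percent of genes with a peak in the gene window in CM (blue) and with romidepsin (orange), with the number of genes in brackets. HoxC and HoxD have no CM bar, as have the caudal and ParaHox genes, whereas all MLL, Polycomb and myeloid marker genes have a peak in both lists.

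The gain of Hox genes with romidepsin depended on how many peaks were kept, and the division between clusters did not. With only the 16419 strongest romidepsin peaks, 6 Hox genes had a romidepsin peak, Hoxa2, Hoxa3, Hoxa4, Hoxb3, Hoxb4 and Hoxb5, where 54.5% of all genes did. Only Hoxa2, through the 50 bp at its window's edge, was then in the romidepsin list only, where 3.92% of all genes were. Hoxa7 and Hoxa9 were then in the CM list only, because the long peak over them had a −log10 q of 4.18 and the weakest peak kept had 4.34. At a −log10 q of at least 2, where 65.8% of all genes had a romidepsin peak, the romidepsin counts were 8 of 10 in HoxA, 7 of 10 in HoxB, 1 of 9 in HoxC and 0 of 9 in HoxD. At a −log10 q of at least 5, where 49.8% of all genes had one, they were 3, 3, 0 and 0. In CM that threshold left Hoxb3 and Hoxb4, which share 1 peak, against 32.4% of all genes. HoxA, like HoxC and HoxD, then had no gene with a CM peak. At a fold of at least 3 the romidepsin counts were 5, 6, 1 and 0, against 59.8% of all genes. In CM, 6 Hox genes had a peak at a −log10 q of at least 2, against 51.2% of all genes, and 7 at a fold of at least 3, against 53.6%. Hox genes in the romidepsin list only numbered 10 at a −log10 q of at least 2 (14.6% of all genes), 4 at 5 (18.5%) and 5 at a fold of at least 3 (7.19%). In each selection HoxA and HoxB together had more genes with a peak than HoxC and HoxD in either list.

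**Figure D5:**
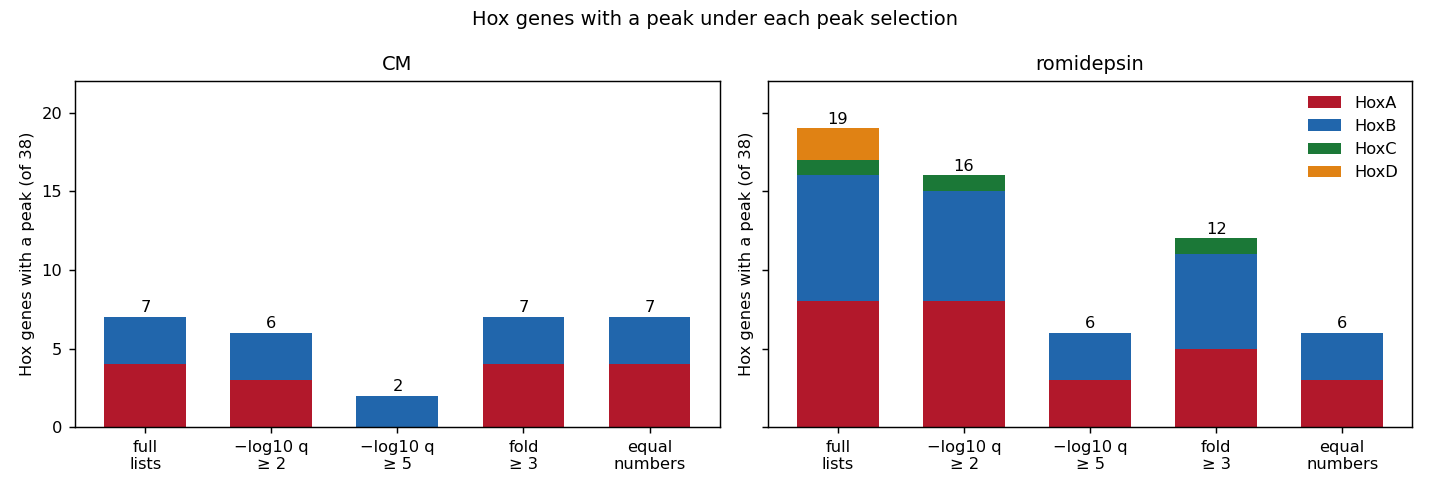
Hox genes with a peak under each peak selection. Bars give the number of the 38 Hox genes with a peak, stacked by cluster, for the full lists, 2 thresholds on −log10 q, a fold of at least 3 and equal numbers of strongest peaks. In the full lists 7 genes had a CM peak and 19 a romidepsin peak, and with equal numbers 7 and 6.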

How the data were processed

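Each file was the deposited list of broad peaks of 1 immunoprecipitated library. Per the submitters' processing notes, Bowtie2 (2.4.4), MACS2 (2.2.7.1) and deepTools (3.5.1) were used with build mm10. Settings, read filters and whether inputs served as control are not given in the sources used here. Per the labels' protocols, reads were single-end. The authors' lists gave for each peak a fold enrichment (a ratio to background), a −log10 p-value, a −log10 q-value and a score. The deposited score and p-value were not used. Read depth is unknown, so no counting intervals were given.

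Peak positions were taken as deposited, with the first base numbered 1. Gene spans came from RefSeq, GRCm38.p6, the assembly of mm10, and start sites from its promoter table, where 250 bases before and 50 after a start are given. A gene counted as having a peak where its window and a peak overlapped by at least 1 bp. All 38 members were matched, and 19 of 21 flanking genes. No test was run, with 1 library per condition. Overlap counting was tested on simulated data. Python 3.11.15, pandas 2.3.3, NumPy 2.4.6 and Matplotlib 3.10.9 were used.

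Alternatives covered −log10 q of at least 2 and 5, a fold of at least 3, equal numbers of strongest peaks, other windows, an overlap of at least 500 bp and merging of peaks closer than 1 kb. Leaving out members that hold another member was added after the data were seen. The members and lists were chosen with earlier results of these data known. Named genes were all members, and from each other list those with a CM peak (the 4 with the highest CM fold where more than 8 had one) and those with no peak in either list; others named were chosen after their values were seen. Flanking genes and cell type markers are given by their counts, with a few named. Some genes of the lists are counted but not reported here by name.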

Additional observations from a re-analysis of the deposited data

How the results depend on the processing

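No paired analysis was possible because each condition had 1 immunoprecipitated library. Counts moved by over 1.5 times under 3 selections of peaks, with fewer peaks kept by construction. At a −log10 q of at least 5, Hox genes with a peak fell to 2 in CM and 6 with romidepsin, with 4 in the romidepsin list only. The clusters then held 1 CM and 4 romidepsin peaks over 0.437% and 4.25% of their sequence, and 1 and 2 start sites were under a peak. At a fold of at least 3, 12 genes had a romidepsin peak, 5 of them in that list only, in 9 peaks. When equal numbers of the strongest were kept, romidepsin peaks stood at 6 genes, 1 of them in that list only, in 4 peaks over 4.25% of the sequence, with 2 start sites under a peak. Counts stayed within 1.5 times at a −log10 q of at least 2, with spans alone, with 2.5 kb or gene-end windows, with an overlap of at least 500 bp, with merged peaks, with starts within 1 kb, and without Hoxa3, Hoxb3 and Hoxd3. Depth and replicate spread, both unknown here, limit every count.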

Other observations

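Long non-coding RNA genes of the clusters were counted by their spans, many of which overlap Hox genes. In HoxA 2 of 9 had a CM peak within their span and 4 of 9 a romidepsin peak, in HoxB 1 of 6 and 2 of 6, in HoxC 0 of 3 and 0 of 3, and in HoxD 0 of 4 and 1 of 4. No share over all long non-coding RNA genes is given here, so these counts cannot be called high or low. The shares of protein-coding genes above rest on wider windows and do not apply to them. Hoxaas3, which overlaps Hoxa5, Hoxa6 and the Hoxa3 start, had 16.6% of its span under a CM peak and 34.8% under romidepsin peaks. Hoxb5os, which overlaps Hoxb5 and Hoxb6, had 3.92% and 38.9%. Hotair in HoxC, Hoxa11os in HoxA and Haglr in HoxD had no peak in either list. The peaks carry no strand, so they cannot be told apart from peaks of the overlapping Hox genes.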
